A study of Homo sapiens with 6 samples.

Results

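Chromatin accessibility was examined at 10 genes that serve as markers of pluripotent cells, LIN28A, LIN28B, L1TD1, SALL4, PRDM14, ZFP42, UTF1, DPPA2, DPPA4 and TERT. They were given as a list whose rule uses no measured value, although it was drawn up with earlier results of these data known. The list makes up 10 of the 20037 protein-coding genes of the RefSeq table. For each gene every ATAC-seq summit inside the gene or within 20000 bp of it was taken, which gave 239 of the 356720 summits of the series. When summits closer than 250 bp were grouped, these fell into 73 of 123131 loci. At the starts of the genes 0 of 10 were higher in all 4 shHNRNPU libraries than in the 2 shLUC libraries, beside 14.1% of all genes with a summit there, and 2, SALL4 and DPPA4, were lower, beside 6.91%. Among 21 loci held by all libraries 2 were higher, inside PRDM14 and near SALL4, beside 10.9% of all such loci, and 4 were lower, beside 13.9%, which are the SALL4 and DPPA4 starts and loci near L1TD1 and inside LIN28B. The locus counts are close to these backgrounds. With 4 libraries against 2, the exact permutation test used here cannot give a p below 0.133.

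The 10 genes have different jobs in pluripotent cells. LIN28A and LIN28B encode RNA-binding proteins that block the maturation of let-7 family microRNAs, and L1TD1 encodes an RNA-binding protein derived from a transposon. SALL4, PRDM14 and ZFP42, also called REX1, encode zinc-finger proteins that act on transcription, and PRDM14 is known for the repression of differentiation genes. UTF1 encodes a chromatin-associated protein, DPPA2 and DPPA4 are neighbouring genes for partner proteins with a SAP domain, and TERT encodes the catalytic subunit of telomerase. Primed pluripotency is the state of the post-implantation epiblast and of conventional human embryonic stem cells, and genes of this list such as ZFP42 and PRDM14 are not restricted to it.

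H1 is a human embryonic stem cell line, which was grown here in mTeSR1 medium on Matrigel. The cells carried short hairpin RNAs delivered by virus and were selected with puromycin, the controls included. Hairpins shHNRNPU #1 and shHNRNPU #2 target HNRNPU, which encodes a nuclear RNA-binding protein, and shLUC targets luciferase, with 2 libraries for each hairpin. Neither the separateness of the cultures nor the extent of the knockdown can be read from the labels or the summit lists. The p-values therefore concern these libraries only, and the permutation treats the libraries of both HNRNPU hairpins and of the control as exchangeable.

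ATAC-seq marks open chromatin by the cuts of a transposase. A summit is the position of strongest signal in a called peak, and its score was taken, from its values and the format of the caller, as the -log10 of the q-value of that peak in its own library. Scores were turned into percentiles, the rank of a summit among all summits of its library from 0 to 100, because the lists had not been normalised to each other. The libraries held 52168 to 63519 summits, and with no read counts in them the depth is unknown. POU5F1, SOX2 and NANOG, which define pluripotent cells, had a summit within 2000 bp of the gene start in all 6 libraries, and DNMT3B had one in 5. Of 8 markers of other cell types, ALB, PTPRC, GATA1 and INS had a summit in 0 libraries, KRT5 in 1, CD3E in 4, and MYOD1 and SFTPC in all 6. Each library is a bulk sample, in which fewer open cells and weaker opening per cell cannot be told apart.

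The annotated starts of 7 of the 10 genes were found in the RefSeq promoter table (GRCh38.p14). LIN28A, SALL4 and PRDM14 were not in it, and for these both gene ends were searched. Upstream sequences are shown for 4 genes, 5′ to 3′ on the strand of the gene, as examples of strong and weak starts. The highest summit lay in the 300 bases around the start in all 6 libraries at DPPA4, DPPA2 and ZFP42 and in 2 at UTF1. DPPA4 is the gene whose annotated start separated the groups, DPPA2 is its neighbour, ZFP42 had a strong summit and UTF1 the weakest. Capitals mark matches on either strand to the GC box, spelled GGGCGG, or to the box named CCAAT by its letters, and each stretch ends at the base before the start. They lie at chr3:109337547-109337796 (minus strand) for DPPA4, at chr3:109316518-109316767 (minus strand) for DPPA2, at chr4:187995521-187995770 (plus strand) for ZFP42 and at chr10:133229967-133230216 (plus strand) for UTF1.
DPPA4: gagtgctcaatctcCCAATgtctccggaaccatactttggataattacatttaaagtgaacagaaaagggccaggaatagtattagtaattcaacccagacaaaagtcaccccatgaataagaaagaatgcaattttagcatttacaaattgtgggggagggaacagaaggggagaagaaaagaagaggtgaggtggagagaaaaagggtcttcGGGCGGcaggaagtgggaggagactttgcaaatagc
DPPA2: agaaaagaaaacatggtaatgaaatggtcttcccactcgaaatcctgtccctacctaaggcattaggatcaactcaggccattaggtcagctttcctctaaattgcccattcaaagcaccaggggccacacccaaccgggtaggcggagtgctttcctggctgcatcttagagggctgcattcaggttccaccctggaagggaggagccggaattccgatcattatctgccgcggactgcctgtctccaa
ZFP42: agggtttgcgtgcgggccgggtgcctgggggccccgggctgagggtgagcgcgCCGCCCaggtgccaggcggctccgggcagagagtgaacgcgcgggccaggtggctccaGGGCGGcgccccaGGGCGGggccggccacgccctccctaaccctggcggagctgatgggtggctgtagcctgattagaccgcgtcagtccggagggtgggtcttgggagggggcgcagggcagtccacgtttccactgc
UTF1: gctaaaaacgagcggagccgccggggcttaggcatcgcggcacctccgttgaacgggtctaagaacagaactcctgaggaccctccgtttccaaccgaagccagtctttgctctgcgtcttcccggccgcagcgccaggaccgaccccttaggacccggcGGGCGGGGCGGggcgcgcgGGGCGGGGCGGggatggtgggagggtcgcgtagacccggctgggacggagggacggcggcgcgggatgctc

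The search covered 300 bases of each promoter, from 250 before to 50 after the start, on both strands. Besides these 2 motifs it looked for the TATA box, spelled TATAAA, the E-box with the letters CACGTG, and the octamer, which is ATTTGCAT. The DPPA4 promoter held 1 GC box, starting at -36 from the gene start, and 1 CCAAT box at -236. In DPPA2 none of the 5 motifs was found. ZFP42 held 3 GC boxes and 1 CCAAT box, and UTF1 held 6 GC boxes, of which 4 lie in the stretch shown. Of all 35116 promoters of this length, 45.0% held a GC box, 34.6% a CCAAT box, 11.5% a TATA box, 7.26% an E-box and 1.77% an octamer. Base composition differed widely between the 4 promoters. GC content was 45.3% in DPPA4, 51.3% in DPPA2, 69.3% in ZFP42 and 71.7% in UTF1, beside a median of 58.7% over all promoters, and the number of CpG dinucleotides was 5, 7, 24 and 39, beside a median of 14. These are matches of letters and say nothing of which proteins were bound.

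Summits sat at nearly the same place in these promoters in every library, apart from UTF1. At DPPA4 the highest summit of the 6 libraries lay 60 to 86 bp before the start, and at ZFP42 it lay 101 to 216 bp before it. At DPPA2 it lay on both sides of the start, from 58 bp before to 25 bp after. L1TD1 had its summit 70 to 191 bp before the start, and LIN28B 344 to 459 bp before the first of its 2 annotated starts. UTF1 differed, since its highest summit lay 266, 243 and 132 bp before the start in 3 libraries and 302 and 634 bp after it in 2 others, and shHNRNPU #2 repeat 1 had none within 2000 bp.

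The number of summits in the windows gave the first comparison. The shHNRNPU #1 libraries held 43 and 44 summits in the 10 windows, the shHNRNPU #2 libraries 35 and 40, and the shLUC libraries 37 and 40, so the groups overlapped. The shHNRNPU mean was 40.5 ± 4.04 (SD, n = 4) and the shLUC mean 38.5 ± 2.12 (SD, n = 2), a difference of 2.0 summits that was smaller than the spread between the shHNRNPU libraries. Per 10000 summits of a library the means were 6.97 ± 0.717 and 6.23 ± 0.402, a difference of 0.733, slightly above the shHNRNPU SD. By this share the groups overlapped through shHNRNPU #2 repeat 1, at 5.99 between the shLUC values of 5.95 and 6.52. The other shHNRNPU libraries lay at 6.93 to 7.67.

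SALL4 was the gene whose number of summits separated the groups, with 4 in each shHNRNPU library and 3 in each shLUC library (exact two-sided permutation test over the 15 choices of 2 controls, p = 0.133, Benjamini-Hochberg adjusted p over all genes 1.0). The additional summits were weak and lay at different places. In shHNRNPU #1 repeat 1 and #2 repeat 2 they belonged to a locus 876 bp from the nearest gene end, at percentiles of 10.9 and 40.0, and in the other libraries they were single calls at percentiles of 34.3 and 2.36. A higher number in all shHNRNPU libraries was thus found at 1 of 10 genes, beside 3.54% of the 18733 genes with a summit, and a lower number at 0 of 10, beside 3.92%. The 0 is a count of groups that do not overlap, and an unadjusted p under 0.05 was reached at 0 genes, since this test does not allow it.

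The other genes held similar numbers of summits in both groups. LIN28B, the longest gene, had 7, 9, 5 and 5 summits with shHNRNPU, against 8 in each control, so that the shHNRNPU #2 libraries lay below the controls and those of shHNRNPU #1 on either side. UTF1 had 7, 4, 2 and 5 summits with shHNRNPU and 4 and 3 with shLUC, the widest range of the 10 genes among the shHNRNPU libraries. ZFP42 had 3 or 4 summits with shHNRNPU and 3 and 2 with shLUC. Per 10 kb of window the mean over the 6 libraries was lowest at TERT, with 0.285 summits, and highest at UTF1, with 1.01.

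**Figure D1:**
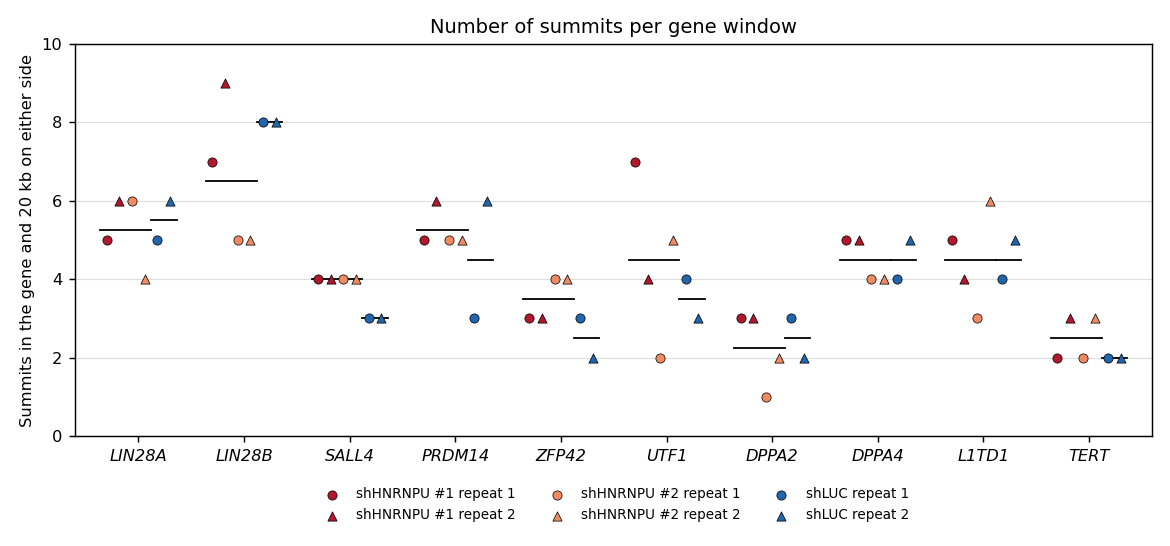
Number of summits in each gene and 20 kb on either side (y axis, counts) for the 10 genes (x axis), with 1 point per library and a line at the mean of the 4 shHNRNPU or the 2 shLUC libraries. SALL4, with 4 against 3 summits, is the gene where the groups do not overlap.

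Gene starts were compared by the highest percentile of a summit within 2000 bp. At 9 of the 10 genes a summit was found at the start in all 6 libraries, at percentiles from 58.4 to 94.7. UTF1 was the exception, with percentiles from 26.7 to 45.3 in 5 libraries. Starts that were higher in every shHNRNPU library numbered 0 of 10, beside 14.1% of the 15833 genes with a summit at the start. SALL4 and DPPA4 were lower in all of them, 2 of 10 genes beside 6.91% of all genes. The median difference over the 10 genes was -1.10 percentile points, beside 1.01 over all genes with a summit.

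SALL4 is a zinc-finger factor of the pluripotency network. At its upper gene end the percentile was 81.1 and 80.4 with shHNRNPU #1, 88.3 and 72.7 with shHNRNPU #2, and 91.3 and 94.4 with shLUC. The 4 shHNRNPU libraries thus lay below both controls, and the means were 80.6 ± 6.36 (SD, n = 4) and 92.9 ± 2.15 (SD, n = 2). The difference of -12.2 points was of the same size for the 2 hairpins, at -12.1 and -12.4 (exact two-sided permutation test, p = 0.133, the smallest this design allows, and 0.634 after Benjamini-Hochberg adjustment over all genes). This locus is centred at position 51802624 of chromosome 20, 103 bp outside the gene end. Its scores were 20.5, 19.1, 23.9 and 15.8 with shHNRNPU and 30.4 and 36.0 with shLUC, so the groups were also apart before the ranking.

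At the start of DPPA4 the percentile was 78.3 and 69.4 with shHNRNPU #1, 58.4 and 82.9 with shHNRNPU #2, and 83.3 and 87.6 with shLUC. All shHNRNPU libraries lay below the controls, but shHNRNPU #2 repeat 2 was only just below shLUC repeat 1. The means were 72.3 ± 10.8 (SD, n = 4) and 85.5 ± 3.05 (SD, n = 2), a difference of -13.2 points (exact two-sided permutation test, p = 0.133, adjusted p = 0.634). The scores themselves overlapped, at 18.2, 12.8, 8.36 and 23.2 with shHNRNPU and 20.7 and 23.8 with shLUC, so the separation at DPPA4 depended on the ranking. DPPA2, its neighbour and the gene for its partner protein, had overlapping groups with 88.9, 83.4, 90.5 and 85.9 against 91.7 and 85.1, a difference of -1.22 points.

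The RNA-binding genes had overlapping groups at their starts. LIN28A lay between 77.4 and 85.6 in the shHNRNPU libraries and at 77.5 and 81.9 in the controls. For LIN28B the range was 86.7 to 94.6 with shHNRNPU, with 84.1 and 94.7 in the controls. L1TD1 had 75.3, 82.1, 69.4 and 83.1 with shHNRNPU and 88.9 and 80.2 with shLUC, and 2 shHNRNPU libraries lay above the lower control. The differences of means were 1.73, 1.69 and -7.06 points, each with an exact p of 0.4 or more.

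Of the remaining factors, PRDM14 had 82.7, 90.8, 92.0 and 82.8 with shHNRNPU and 90.9 and 92.2 with shLUC. The difference of means was -4.52 points, with -4.84 and -4.19 for the 2 hairpins, and shHNRNPU #2 repeat 1 lay between the controls. ZFP42 had 85.9, 86.8, 80.6 and 66.8 against 85.0 and 72.7, a spread of 9.23 (SD, n = 4) and 8.69 (SD, n = 2) around nearly equal means of 80.0 and 78.9. TERT had 91.4 and 85.2 with shHNRNPU #1, 74.6 and 70.2 with shHNRNPU #2, and 64.8 and 74.8 with shLUC. Both libraries of shHNRNPU #1 lay above the controls at TERT and both of shHNRNPU #2 between them, so that the difference of means of 10.5 points (exact two-sided permutation test, p = 0.4) came mostly from shHNRNPU #1, with 18.5 points against 2.59.

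**Figure D2:**
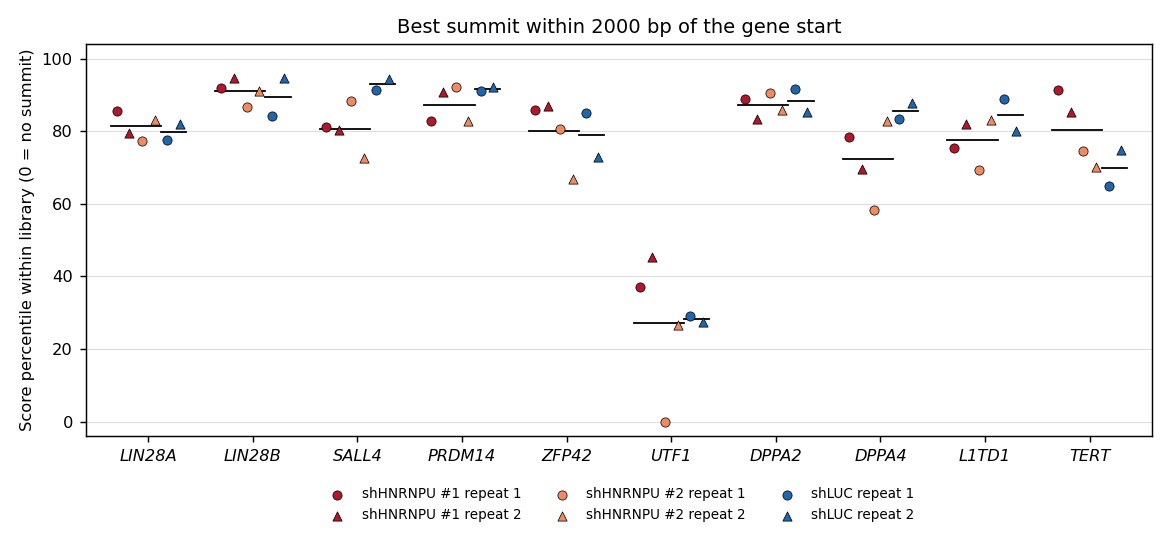
Highest score percentile of a summit within 2000 bp of the gene start (y axis, 0 where there was no summit) for the 10 genes (x axis), with 1 point per library and a line at the mean of each group. At SALL4 and DPPA4 all 4 shHNRNPU points lie below both shLUC points, and UTF1 is the lowest gene.

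By the strongest summit of the whole window, 0 of 10 genes were higher in all shHNRNPU libraries, beside 12.1% of all genes with a summit, and 2 of 10, DPPA4 and L1TD1, were lower, beside 10.3%. The median difference was -0.400 points, beside 0.155 over all genes. The mean was 87.2 ± 3.17 (SD, n = 4) against 93.8 ± 2.97 (SD, n = 2) for DPPA4 and 77.5 ± 6.39 against 86.2 ± 3.84 for L1TD1. The windows of DPPA2 and DPPA4 overlap, and the strongest summit of DPPA4 was that at the start of DPPA2 in all 4 shHNRNPU libraries. In 1 shLUC library it was a locus 18956 bp from the start of DPPA4, at percentile 95.9.

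That distant DPPA4 locus, centred at position 109356502 of chromosome 3, was held by 4 libraries, with percentiles of 81.7 in shHNRNPU #1 repeat 1, 79.3 in #2 repeat 1, and 88.5 and 95.9 in the shLUC libraries. The repeat 2 libraries of both HNRNPU hairpins had their summit at a neighbouring locus centred at 109355838, with percentiles of 82.7 and 69.2. The region was therefore called in all 6 libraries, with the summit at one of 2 positions less than 1000 bp apart.

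The strongest locus in the windows as a whole lay 2521 bp beyond an end of LIN28A, at position 26432249 of chromosome 1 and within 2000 bp of an end of DHDDS. Its percentile was 98.7, 98.7, 94.6 and 98.2 with shHNRNPU and 97.5 and 96.8 with shLUC, so it stood among the highest summits of every library. The strongest locus of UTF1 likewise lay near another gene, KNDC1, 10181 bp from the start of UTF1, with 72.9, 78.8, 71.6 and 49.3 against 43.7 and 77.5. For SALL4, PRDM14, ZFP42, L1TD1, LIN28B and TERT it was the locus at the gene start or end, by the mean over the libraries that held it.

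**Figure D3:**
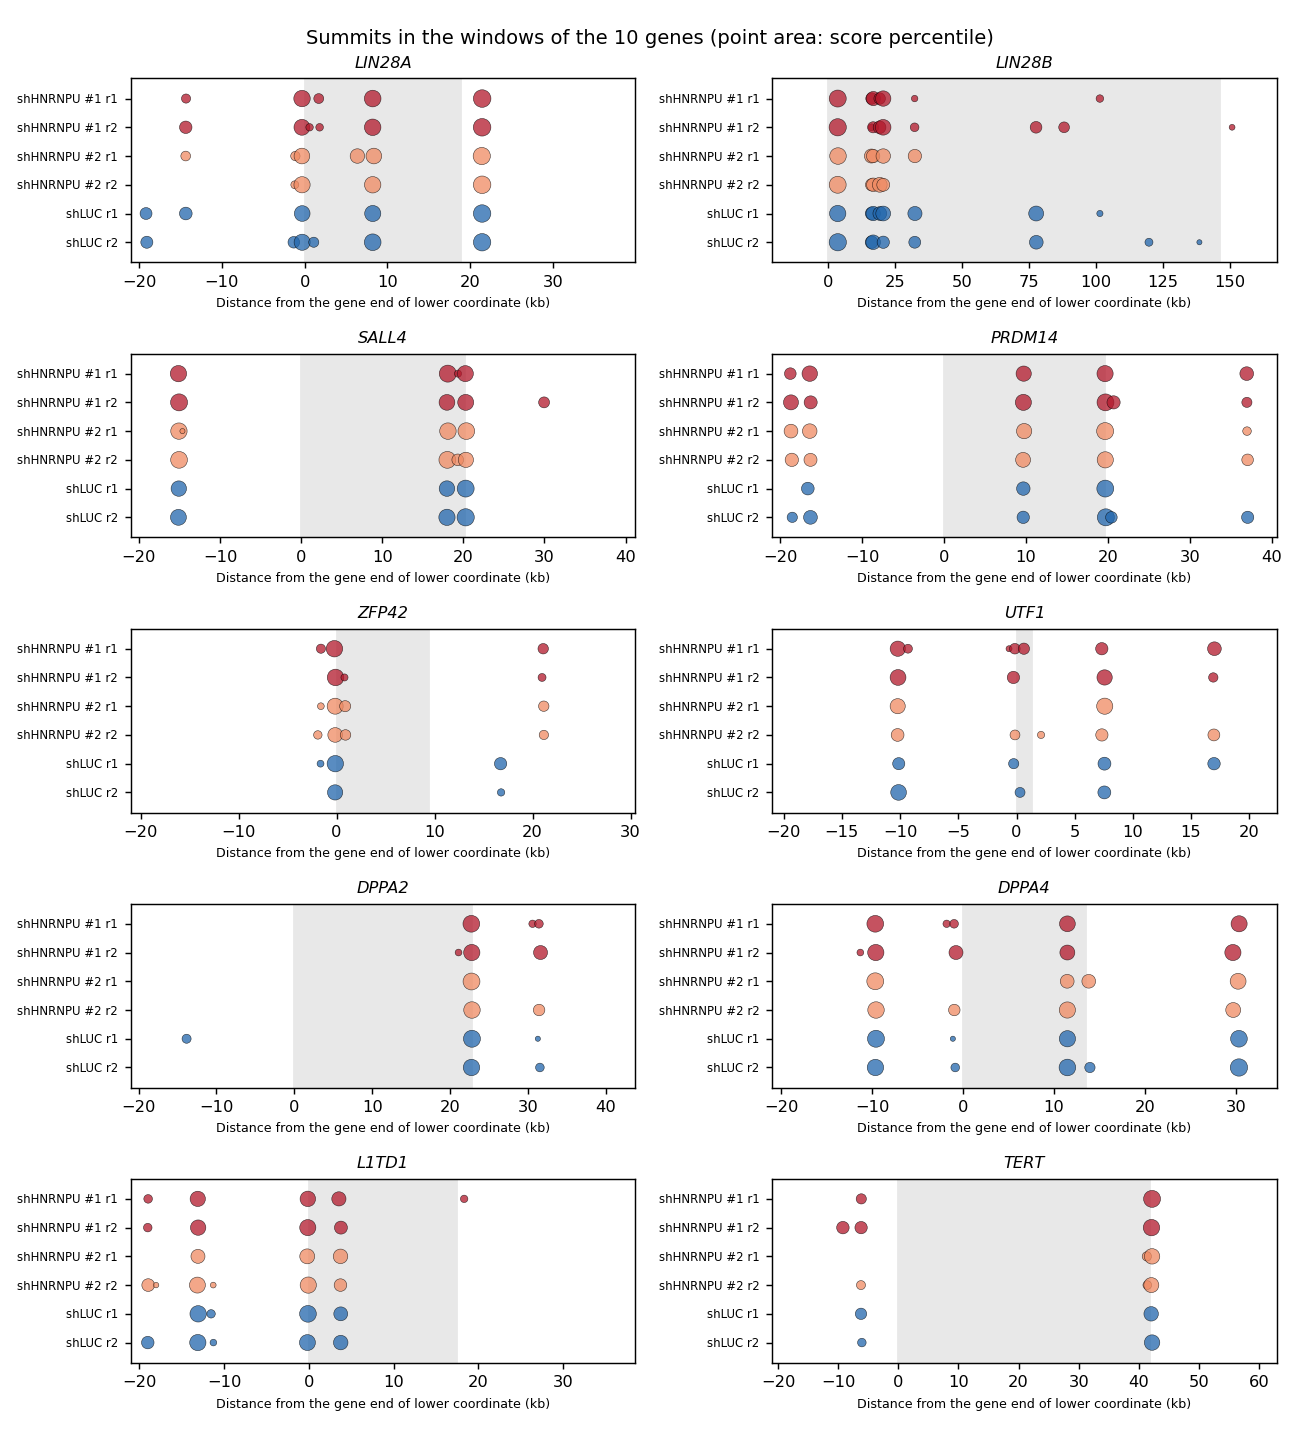
Summits in the windows of the 10 genes by library (rows), with the distance from the gene end of lower coordinate on the x axis (kb), the gene in grey and the area of a point showing the score percentile of the summit. Large points line up over the 6 libraries at the gene starts, apart from UTF1, and at some loci away from starts. Small points are mostly found in 1 library or a few.

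Of the 73 loci, 21 were held by all 6 libraries, and at these the percentiles could be compared directly. The mean was higher with shHNRNPU at 11 and lower at 10, with a median difference of 0.419 points, beside -0.291 over all 25519 such loci of the genome. The groups did not overlap at 6 of the 21. At 2 of them shHNRNPU was higher, beside 10.9% of all such loci, and at 4 it was lower, beside 13.9%. For each of the 6 the exact two-sided permutation test gave p = 0.133, the smallest possible, and an adjusted p of 0.538 over all loci, so none passed a threshold of 0.05. The SALL4 and DPPA4 starts, given above, are 2 of the 4 lower loci.

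The largest difference was at PRDM14, the repressor of differentiation genes. The locus lies within the gene span at position 70061336 of chromosome 8, 9685 bp from the nearest gene end. Its percentile was 72.6 and 81.4 with shHNRNPU #1, 72.8 and 69.1 with shHNRNPU #2, and 55.3 and 45.5 with shLUC. All shHNRNPU libraries thus lay well above both controls, and the means were 74.0 ± 5.24 (SD, n = 4) and 50.4 ± 6.93 (SD, n = 2), a difference of 23.6 points with 26.6 for hairpin #1 and 20.5 for hairpin #2. By score it was 14.6, 20.1, 12.6 and 14.1 against 8.73 and 6.35. The strongest locus of PRDM14, at the gene end, had a difference of -4.52 points, of the opposite sign.

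The other higher locus lay in the window of SALL4 but within 2000 bp of an end of ATP9A, at position 51767284 of chromosome 20 and 15047 bp from the nearest end of SALL4. Percentiles were 84.4, 92.0, 84.7 and 89.0 with shHNRNPU and 74.5 and 79.7 with shLUC, with means of 87.5 ± 3.68 (SD, n = 4) and 77.1 ± 3.70 (SD, n = 2). Within the SALL4 window, the start thus had a difference of -12.2 points and this distant locus one of 10.4 points in the same libraries. One more SALL4 locus held by all libraries, 2104 bp inside the same end as the start, had 92.1, 78.1, 85.7 and 90.0 against 75.6 and 83.5, and there the groups overlapped.

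Of the lower loci away from starts, that of L1TD1 was 13055 bp before the gene, at position 62181794 of chromosome 1. Its percentiles were 73.2, 73.9, 60.4 and 80.3 with shHNRNPU and 85.0 and 83.4 with shLUC, with means of 72.0 ± 8.34 (SD, n = 4) and 84.2 ± 1.13 (SD, n = 2). As at DPPA4, the groups were apart by rank and not by score, since shHNRNPU #2 repeat 2 had a score of 20.8 and shLUC repeat 2 one of 19.5. All 3 loci of L1TD1 held by the 6 libraries had lower means with shHNRNPU, with differences of -12.3, -7.06 and -5.76 points, and the last 2 had overlapping groups.

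Inside LIN28B the lower locus was at position 104953749 of chromosome 6, 3358 bp before the second annotated start. Percentiles were 62.5, 35.6, 54.9 and 55.4 with shHNRNPU and 64.4 and 66.2 with shLUC, with means of 52.1 ± 11.5 (SD, n = 4) and 65.3 ± 1.29 (SD, n = 2). The gap between the groups was small, as shHNRNPU #1 repeat 1 was close to the controls and shHNRNPU #1 repeat 2 was far below. The scores of 10.7, 5.32, 7.72 and 9.63 were below the 11.1 and 10.8 of the controls. At the second start itself the percentiles ran the other way on average, with 74.2, 77.1, 64.6 and 50.3 against 68.0 and 45.0, and the groups overlapped.

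**Figure D4:**
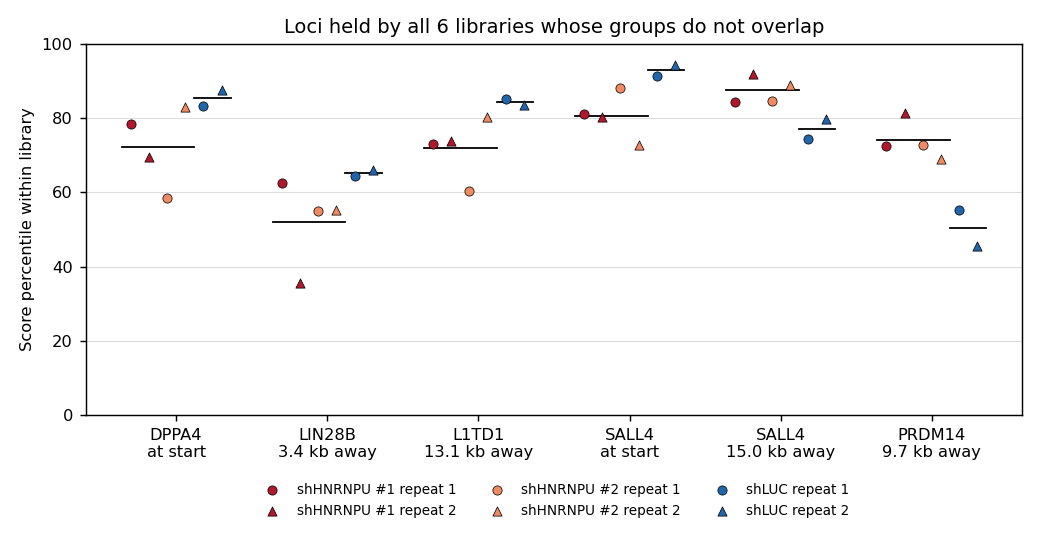
Score percentile (y axis) at the 6 loci that all libraries held and at which the 4 shHNRNPU libraries do not overlap the 2 shLUC libraries (x axis, with the distance from the nearest annotated start, or gene end for SALL4 and PRDM14), with a point per library and lines at the group means. The 4 loci on the left were lower with shHNRNPU and the 2 on the right higher, the widest gap being at PRDM14.

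Lost loci, held by both shLUC libraries and no shHNRNPU library, numbered 2 of 73 in these windows, beside 1.93% of all loci. The first was 19060 bp from the nearest end of LIN28A, at position 26391757 of chromosome 1, with percentiles of 41.9 and 42.9 in the controls and the nearest shHNRNPU summit 4693 bp away. ZFP42 had the second, at position 188012512 of chromosome 4, 16741 bp from the gene start, with percentiles of 45.2 and 11.8 and the nearest shHNRNPU summit 4231 bp away. A gained locus, held by all 4 shHNRNPU libraries and no control, was found once, beside 0.88% of all loci, and again near ZFP42. It was at position 188016861, 21090 bp from the start, with percentiles of 30.7, 15.1, 30.4 and 23.1, and the nearest shLUC summit was 4299 bp away. All 3 were below the median of their libraries by score.

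Loci of the 10 genes were held by all 6 libraries in 28.8% of cases and by 1 library in 32.9%. In the windows of all protein-coding genes these shares were 23.3% and 35.6%, and over all loci 20.7% and 38.0%. Of the 27 loci within 2000 bp of an annotated start of a member, or of either gene end for LIN28A, SALL4 and PRDM14, 10 were held by all libraries and 9 by 1, and of the 46 farther away 11 and 15. The lost and gained loci and 4 of the 6 separating loci were in the second class. Where all libraries held a locus, their summits were spread over a median of 98 bp, from 26 to 349 bp.

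**Figure D5:**
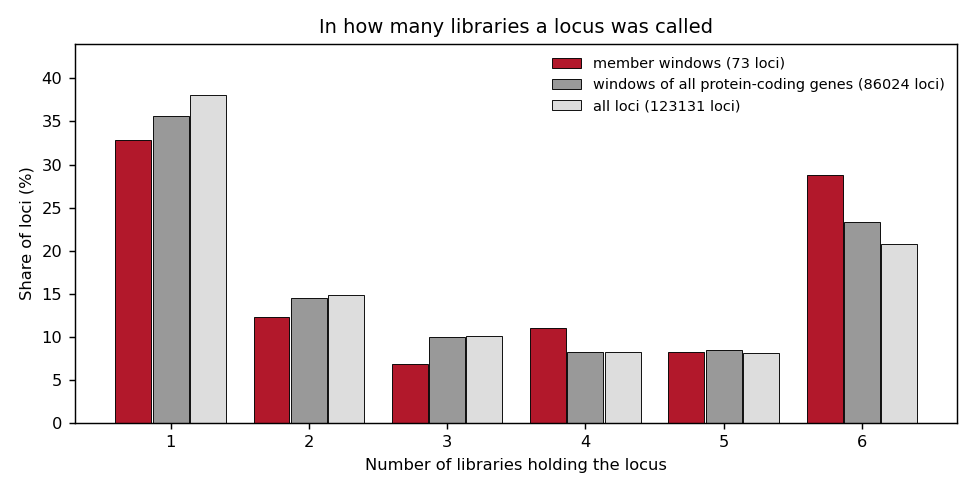
Share of loci (y axis, %) held by 1 to 6 libraries (x axis) for the 73 loci of the member windows, the loci in windows of all protein-coding genes and all loci. In each class the shares are highest at 1 and at 6 libraries, with 28.8% of the member loci held by all 6.

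A second list of 18 genes of the same state or shared with other pluripotent states was put beside the members. At the start, 3 of 18 were higher in all shHNRNPU libraries, ZIC2, THY1 and VRTN, and 1, NODAL, a ligand that maintains primed cells, was lower. These are 16.7% and 5.56% of the list, near the 14.1% and 6.91% of all genes. The number of summits was higher at 0 and lower at 1, NANOG, with 2, 2, 1 and 1 against 4 and 3, beside 3.54% and 3.92% of all genes. At the start THY1, a cell surface protein, had percentiles of 60.0, 54.8, 76.6 and 45.9 with shHNRNPU and 27.1 and 35.3 with shLUC, and NODAL had 58.8, 82.4, 82.4 and 61.0 against 88.5 and 90.1. Among the 10 members no start was higher, and the difference between the 2 lists was not tested.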

How the data were processed

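The authors deposited 1 list of summits for each of the 6 libraries, with a score per summit that starts at 1.30 or 1.31. From its values and format this deposited score was taken as the −log10 q-value that the peak caller writes. Peaks were called per library. The submitters' processing notes name hg38, cutadapt, Bowtie2, SAMtools, MACS2 and deepTools, and their parameters and any shift for the transposase are not given in the sources used here. Other values than summits were not analysed here.

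The summits of all libraries were grouped by falling percentile, each locus absorbing summits within 250 bp, and presence in a library was judged over the same 250 bp around the centre, so that 1 summit can serve 2 neighbouring loci. Windows reached 20000 bp beyond the gene. A gene or locus was counted as higher or lower when all 4 shHNRNPU libraries lay above or below both shLUC libraries, and exact two-sided permutation tests were adjusted over all genes or loci by the Benjamini-Hochberg method. No locus or gene had an unadjusted p under 0.05, and the smallest adjusted p over all loci was 0.538. Genes and coordinates are those of RefSeq GRCh38.p14, and exons were not analysed here. All 10 members are named, with the strongest locus of each and every lost, gained or separating locus. The strongest summits in the windows of the second list are not reported here. The members and lists were chosen with earlier results of these data known. No 2 libraries held identical lists. The grouping was tested on simulated data. Python 3.11.15, numpy 2.4.6, pandas 2.3.3 and scipy 1.17.1 were used.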

Additional observations from a re-analysis of the deposited data

Results flagged for a closer look

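Among 43 values examined, 3 stood apart. Those of PRDM14 and LIN28A were flagged as samples far from the rest of their group, for which chance gives 2.15. The value of UTF1 was flagged by another rule, for a difference between the hairpins. At the start of UTF1 both libraries of shHNRNPU #1 lay above the controls, at percentiles of 36.9 and 45.3 against 29.0 and 27.4, and both of shHNRNPU #2 lay below, at 0 (no summit) and 26.7. The hairpins differed by 27.8 percentile points, and this difference was not tested. At PRDM14, shHNRNPU #1 repeat 2 had 6 summits in the window where the other 3 shHNRNPU libraries had 5. At the strongest LIN28A locus, near DHDDS, shHNRNPU #2 repeat 1 had a percentile of 94.6 where the other 3 had 98.2 to 98.7.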

How the results depend on the processing

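Of 463 recomputed values, 1 reversed a separating difference. This was the DPPA4 start, at 27.79 points with either gene end as start for every gene. The promoter locus then lies more than 2000 bp from the gene end. Differences with overlapping groups changed sign in several settings. The UTF1 start went from -0.985 to 6.907 points for summits scoring 5 or more. The LIN28B start went from 1.691 to -3.585 points without shLUC repeat 1. Either end, annotated starts only and the score in place of the percentile at starts and loci were added with the data in view.

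The separating loci of PRDM14 and SALL4 remained so in 12 of 12 settings, with differences of 18.67 to 37.28 points at PRDM14, 7.826 to 16.19 at the distant SALL4 locus and -17.36 to -9.609 at the SALL4 start locus. That of L1TD1 overlapped when the score was used, that of LIN28B in lists of one length (52168 summits each), and the DPPA4 start in both and with a score of at least 5. The number of SALL4 summits separated the groups in 8 of 11 settings. Of these, only windows of 50000 bp could undo it.

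Genes lower at the start numbered 1 in place of 2 for summits scoring 5 or more, lists of one length, a distance of 5000 bp, the score, either gene end or annotated starts only. Genes lower by the strongest summit numbered 1 for summits scoring 5 or more, lists of one length or the score, and 0 with windows of 10000 bp. Genes with more summits numbered 0 (SALL4 overlapped) for summits scoring 5 or more, lists of one length or windows of 10000 bp. Genes with fewer numbered 1 with a score of at least 5. Lost loci numbered 1 for summits scoring 5 or more, lists of one length or windows of 10000 bp, and gained loci 0 with lists of one length, windows of 10000 bp or a match distance of 100 bp. Among loci held by all libraries, 2 were lower with lists of one length or the score, 1 was higher with windows of 10000 bp, and 4 were higher with 50000 bp. Fewer summits or a shorter reach enter by construction in several of these, and otherwise the cause was not tested.

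Leaving out 1 library at a time raises counts by construction. Across the 6 such settings there were 0 to 2 genes higher and 2 to 4 lower at the start, 0 to 2 higher and 2 to 5 lower by the strongest summit, 1 to 2 with more summits and 0 to 1 with fewer, 1 to 3 gained and 2 to 7 lost loci, and 2 to 7 higher and 4 to 8 lower loci held by all libraries. The highest counts came without a shLUC library, except that of fewer summits (LIN28B), which came without shHNRNPU #1 repeat 2. Counts also rose by 1.5 times or more in places without shHNRNPU #1 repeat 1, with 2 gained loci, without shHNRNPU #1 repeat 2, with 3 lost and 3 higher loci, and without shHNRNPU #2 repeat 1, with 3 higher and 6 lower loci, 3 genes lower at the start, and 1 higher and 3 lower by the strongest summit. The difference in summits ran from 0.5 without shLUC repeat 1 to 3.833 without shHNRNPU #2 repeat 1, and per 10000 summits from 0.4494 to 1.059. With all libraries, its sign changed for summits scoring 5 or more (-0.25 summits, 0.1417 per 10000). It was largest with windows of 50000 bp (2.75 and 0.9493).

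Repeat numbers did not pair samples (deviations correlated at -0.0223, -0.0159 and -0.00579 over 13835 genes). The replicate block left the differences (2.0 summits, 0.7334 per 10000) unchanged by construction and could not undo the 2 genes lower at the start. Depth is unknown, so absence of a summit means only that no peak was called.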
